A study of Mus musculus with 8 samples.

Results

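Knockout-alone promoter regions are stretches of chromatin within 1 kb of a gene start that were called open in both Tcf7/Lef1 knockout cultures and in neither control culture. Peaks of the 4 ATAC-seq lists were merged where they overlapped by at least 1 bp, leaving out the mitochondrial chromosome. A merged region was kept when it held a peak from both knockout lists and from neither control list and its centre lay within 1 kb of a gene start, read on the gene's strand. This gave 573 regions, among 8939 knockout-alone regions and 134830 merged regions in all, and they belonged to 556 of 24538 genes. The regions were selected on the peak calls, so their openness in knockout is a description. The RNA of their genes comes from other libraries and was tested.

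The knockout cells descended from LSK bone marrow progenitors of CreER+ mice with floxed Tcf7 and floxed Lef1, and the control cells from CreER+ wild-type mice. Both genotypes therefore carried the tamoxifen-inducible Cre, and both were cultured with OP9-DL1 stroma, which displays the Notch ligand Delta-like 1. Both received 4-OH tamoxifen on days 3 to 5. Lin-CD8-CD4-CD44hiCD25- ckit+ cells, the DN1 stage that precedes T-cell commitment, were sorted on day 7, with 2 RNA-seq and 2 ATAC-seq libraries per genotype. The sources used here do not give the promoter that drives the Cre, the animals' ages or whether replicates came from separate animals, so p-values measure only the spread between these libraries, which may be technical.

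Tcf7 RNA, the check of the labels, stood at 13.2 and 12.4 TPM (a transcript abundance scaled for length and library total) in the knockout libraries, against 518 and 510 TPM in the control libraries. Lef1 stood at 1.46 and 1.57 TPM in knockout and 1.66 and 1.10 TPM in control, so its RNA does not check the Lef1 deletion. Among the sort's own markers, Kit was at 157 TPM in both knockout libraries and at 251 and 238 TPM in control, and Cd44 at 94.0 to 109 TPM in all 4 libraries. Il2ra, which encodes CD25, the marker gated out in both genotypes, was at 0.658 and 0.393 TPM in knockout but at 136 and 133 TPM in control. The knockout ATAC lists held 109380 and 111007 peaks and the control lists 103009 and 105227. A peak missing from a control list means only that no peak passed that list's threshold, since the lists stop at a −log10 q of 2.74 to 2.87.

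ATAC-seq marks open chromatin by where a transposase can insert into DNA, and a gene's promoter usually opens when factors and RNA polymerase occupy it, although an open promoter need not be transcribed. TCF1 (encoded by Tcf7) and LEF1 are DNA-binding factors that act with beta-catenin to activate genes and with Groucho-family corepressors to silence them. In thymic progenitors TCF1 is switched on by Notch and helps to open T-lineage genes, while genes of other lineages are shut as T-cell fate is taken.

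The sequences below show the stretches of 5 knockout-alone regions that lie upstream of their gene's start, with no base of the transcript. Acoxl and Akr1c14 are shown as 2 of the 10 strongest regions, Plin1 and Tie1 for their large RNA rises, and S100a9 as a neutrophil gene. They are given 5′ to 3′ on the gene's strand, from RefSeq on GRCm38.p6 (mm10). Acoxl (chr2:127854378-127854627, + strand), Akr1c14 (chr13:4059435-4059590, + strand), Plin1 (chr7:79732777-79732969, − strand), Tie1 (chr4:118489850-118490056, − strand) and S100a9 (chr3:90695722-90695947, − strand) ended at the base before the start. Capitals mark letters that match, on either strand, CTTTGA for TCF/LEF factors, AGATAA for GATA factors, TGTGGT for RUNX factors, GGAAGT for ETS factors, TGANTCA for AP-1 or TTGCNNAA for C/EBP factors.
Acoxl: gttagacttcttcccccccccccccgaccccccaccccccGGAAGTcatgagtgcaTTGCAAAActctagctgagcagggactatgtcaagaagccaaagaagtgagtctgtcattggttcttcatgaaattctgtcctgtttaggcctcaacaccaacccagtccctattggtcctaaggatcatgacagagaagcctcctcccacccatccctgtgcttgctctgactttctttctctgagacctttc
Akr1c14: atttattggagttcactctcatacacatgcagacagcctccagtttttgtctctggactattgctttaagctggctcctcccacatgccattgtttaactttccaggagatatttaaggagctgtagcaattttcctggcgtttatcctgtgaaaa
Plin1: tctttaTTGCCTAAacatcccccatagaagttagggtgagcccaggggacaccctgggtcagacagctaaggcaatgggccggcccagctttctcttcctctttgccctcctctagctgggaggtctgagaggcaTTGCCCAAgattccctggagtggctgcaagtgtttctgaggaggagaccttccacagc
Tie1: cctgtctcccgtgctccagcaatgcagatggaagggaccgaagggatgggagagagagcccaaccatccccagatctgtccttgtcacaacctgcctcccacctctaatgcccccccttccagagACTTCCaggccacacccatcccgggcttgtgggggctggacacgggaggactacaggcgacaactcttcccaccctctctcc
S100a9: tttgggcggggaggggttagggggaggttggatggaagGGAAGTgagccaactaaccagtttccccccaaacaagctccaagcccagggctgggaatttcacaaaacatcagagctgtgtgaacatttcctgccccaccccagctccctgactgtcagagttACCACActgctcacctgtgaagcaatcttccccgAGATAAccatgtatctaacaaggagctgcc

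The Plin1 stretch held 2 separate C/EBP matches. At least 1 such match stood over the same positions in 6.99% of 16661 promoters in the RefSeq table, and how many hold more was not counted. S100a9 held a GATA, a RUNX and an ETS match, which 7.93%, 10.9% and 19.98% of promoters hold over its positions. The Acoxl stretch matched ETS (21.3% of promoters) and C/EBP (9.21%), Tie1 matched ETS (18.7%), and Akr1c14 matched none of the 6 motifs. A match is a run of letters and not a bound site. Of the 556 genes, 374 (67.3%) had a promoter in the table whose start lay within 100 bp of the start in the files. With fewer than 80% of the genes covered, a comparison of motif, GC or CpG content between classes of promoters is void and was not made.

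The rule of selection kept only regions centred within 1 kb of a gene start. Their centres lay a median of 247 bp from the start, 288 of 573 within 250 bp, and 228 regions (39.8%) spanned the start base itself. By position, 254 centres were upstream of the start and 318 downstream. They were narrow, with a median width of 239 bp and a range of 147 to 719 bp.

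**Figure D1:**
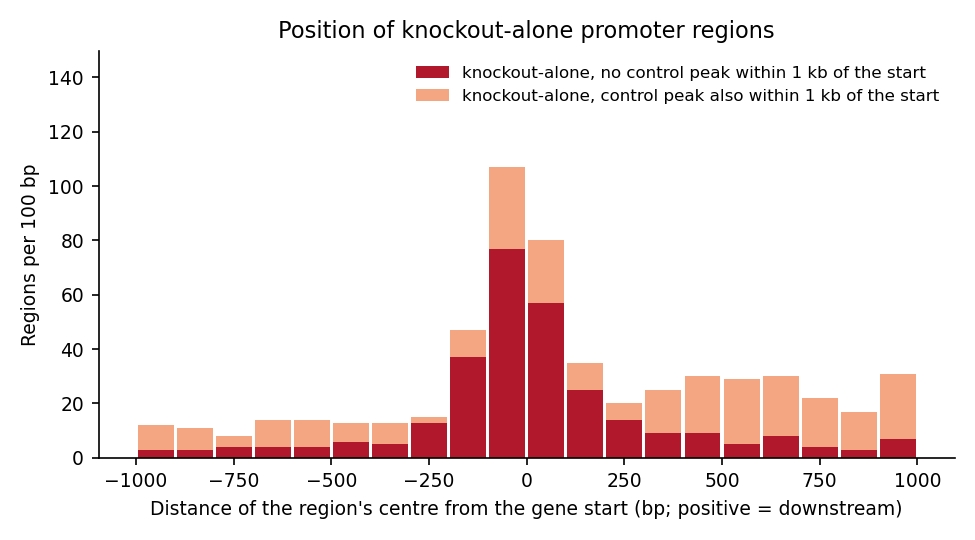
Number of knockout-alone promoter regions (vertical axis) per 100 bp of distance between the region's centre and the gene start (horizontal axis, bp, positive downstream), stacked by whether a control peak also lay within 1 kb of the same start. Regions with no control peak there pile up at the start, and those with one spread further downstream.

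The set held 2 kinds of promoter, a split that was drawn after the peak lists had been seen. At 297 regions (51.8%), belonging to 283 genes, no peak of either control list reached within 1 kb of the same start. These are termed sole openings, which means only that control had no peak there. Another knockout peak could lie at the same start. The other 276 regions (48.2%), belonging to 273 genes, lay beside a control peak at the same start. Sole openings sat a median of 113 bp from the start and 8565 bp from the nearest control peak anywhere. Regions beside a control peak sat 517 bp from the start and 254 bp from the nearest control peak, and so were mostly at the flank of a promoter that was open in control too. The split was made on control peaks, so the difference in distance to a control peak follows in part from it. No region of the set can overlap a control peak, which also limits how near a covered start it can lie. Of all 573 regions, 103 lay within 200 bp of a control peak and 142 more than 10 kb away.

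The peaks were weak beside promoter peaks shared by all lists. The classes were chosen by presence or absence of peaks, so this difference follows in part from the selection. Promoter regions in all lists were also wider (median 577 bp, against 239 bp), and each region took the highest value of its peaks. The −log10 q and fold enrichment are the authors' own values per peak and are used here only as descriptions. The lower of the 2 knockout −log10 q values had a median of 7.65 over the 573 regions, against 96.2 over the 14462 promoter regions present in all 4 lists. Only 8 regions reached 20 in both knockout lists and 129 reached 10, while 51 were under 5. The lower of the 2 fold enrichments had a median of 5.65 at sole openings, 3.58 at regions beside a control peak and 11.9 at promoter regions in all lists. Control-alone promoter regions, the mirror class, numbered 248 and had a median −log10 q of 8.38 in the control lists. Promoters made up 6.41% of knockout-alone regions, 3.84% of control-alone regions and 18.1% of regions in all lists.

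**Figure D2:**
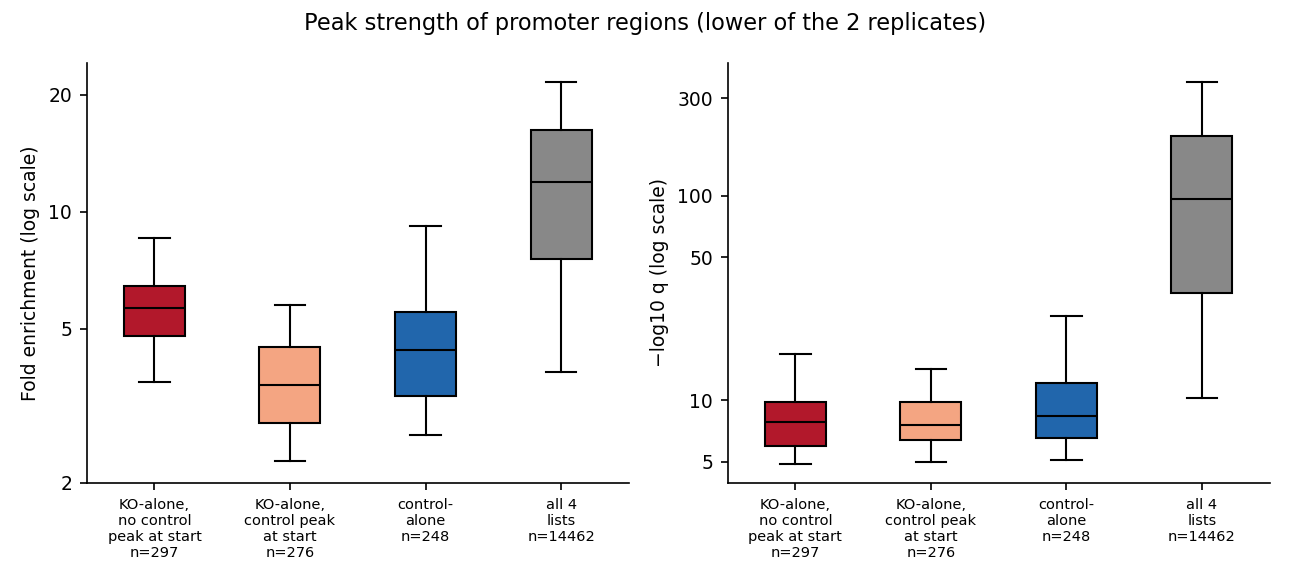
Fold enrichment (left) and −log10 q (right), both on log axes, of promoter regions, taking the lower of the 2 replicates of the genotype that had the peak (knockout for regions in all 4 lists). Boxes span the quartiles with the median as a line and whiskers the 5th to 95th percentiles. Knockout-alone and control-alone regions lie well below regions found in all lists, with medians of −log10 q of 7.81, 7.56 and 8.38 against 96.2. The classes were chosen on peak calls, so this difference follows in part from the selection.

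The strongest region by the lower −log10 q lay 931 bp into Per2, a circadian clock gene (chr1:91458264-91458530, −log10 q of 34.4 and 43.0 in the knockout lists). A control peak stood 589 bp away from it. Of the 10 strongest regions, 3 were sole openings with a fold enrichment above 11 in both knockout lists. These were Adamtsl1, a secreted matrix protein gene (chr4:86053522-86054078, −log10 q of 25.7 and 33.9), Acoxl, an acyl-CoA oxidase-like gene (chr2:127854333-127854896, 24.4 and 29.6), and Akr1c14, an aldo-keto reductase gene (chr13:4059435-4059700, 20.8 and 21.9), each spanning the start. Igfbp6, an insulin-like growth factor-binding protein gene (26.5 and 25.6), Sox5, an HMG-box factor gene (20.2 and 26.7), and Zfp354a, a zinc-finger gene (20.8 and 19.4), were sole openings too. Mir7009, a microRNA gene (23.1 and 30.9), the cohesin gene Smc1a (chrX:152016769-152017010, 25.9 and 20.7) and Cntnap1, a contactin-associated membrane protein gene (22.1 and 19.6), were the rest of the 10 strongest, and each had a control peak within 1 kb of its start.

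RNA at these strongest promoters was mostly low or level. Akr1c14 had 3.98 and 2.82 TPM in knockout, against 1.32 and 0.507 TPM in control. Both knockout values were above both control values, a 3.73-fold difference of means (log2 change 1.22, SE 0.31, limma adjusted p = 0.0291). The call was lost without knockout replicate 1, knockout replicate 2 or control replicate 2 (adjusted p = 0.143, 0.0646 and 0.103) and when low genes were kept in (0.0565). Smc1a had 459 and 460 TPM in knockout and 426 and 415 TPM in control, a rise of 1.09-fold (adjusted p = 0.032). This call was lost under most alternatives, and the log2 change turned to −0.022 after quantile normalization. Per2, Mir7009, Sox5 and Cntnap1 did not pass the test, with log2 changes of 0.09, −0.53, −0.20 and −0.42. Mir7009 lies inside Anxa5 on the same strand, so reads of the host gene may count towards it. Adamtsl1 was listed at 0.381 and 0.360 TPM in knockout and 0.488 and 0.511 TPM in control, and Acoxl at 0 and 0.0492 TPM in knockout and 0.535 and 0 TPM in control. Igfbp6 and Zfp354a also stayed under 1 TPM in every library. These 4 genes, each with one of the strongest promoter openings, were too low to be tested.

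Low RNA was about as common in the set as among all genes. Of the 556 genes, 295 (53.1%) had a mean of at least 1 TPM over the 4 libraries and were tested, against 53.9% of all 24538 genes. The remaining 261 were not tested, and 20 of them were listed at 0 in every library. Among those 261, mean TPM was higher in knockout for 112 and lower for 129. The share tested differed by kind of promoter, with 97 of 283 genes at sole openings and 198 of 273 genes beside a control peak. Median TPM was 0.291 in knockout and 0.397 in control at sole openings, and 9.57 in knockout and 7.50 in control beside a control peak.

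**Figure D3:**
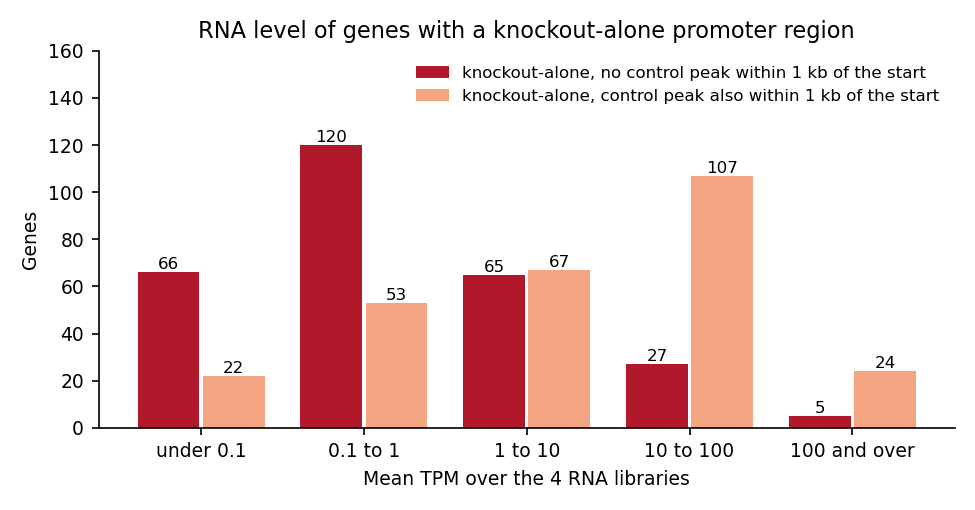
Number of genes (vertical axis) in each range of mean TPM over the 4 RNA libraries (horizontal axis), by whether a control peak also lay within 1 kb of the start. Genes at sole openings were most often between 0.1 and 1 TPM (120 genes), and genes beside a control peak between 10 and 100 TPM (107 genes).

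Among the tested genes, rises outnumbered falls. Of 295, 109 rose (36.9%) and 37 fell (12.5%), while 149 did not pass (limma on log2(TPM + 1), adjusted p under 0.05 over all genes). Among all 13228 tested genes, 25.2% rose and 14.7% fell. Both knockout values were above both control values in 170 of the 295 genes (57.6%) and below them in 65 (22.0%), against 44.4% and 29% of all tested genes. The median log2 change was 0.31 over the 295 genes and 0.09 over all tested genes. With low genes kept in, the median was 0.08 over 536 of these genes and 0.0037 over 21810 genes in all, and 16.2% of the 536 rose. The tested genes include 17 with a control mean under 1 TPM, 5 of which rose, and 3 with a knockout mean under 1 TPM, of which 0 fell. In bulk libraries a change in a gene's RNA per cell and a change in the share of cells that carry it cannot be told apart.

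Scaling of the libraries moved the balance of calls. Rises made up 74.7% of the calls at these promoters as deposited, 68.6% with quantile normalization and 67.6% with median-ratio scaling. Among all tested genes those shares were 63.2%, 53.2% and 49.4%. Without control replicate 1 the counts at these promoters were 62 risen and 17 fallen, beside 15.8% risen and 8.41% fallen among all tested genes. Without knockout replicate 1 they were 65 and 27, beside 15.6% and 10.9%, and without control replicate 2 they were 73 and 22, beside 16.5% and 9.06%.

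The kinds of promoter were also counted apart. At sole openings 44 of 97 tested genes rose (45.4%) and 9 fell (9.28%), with a median log2 change of 0.61. Beside a control peak 65 of 198 rose (32.8%) and 28 fell (14.1%), with a median of 0.22. Leaving out 1 RNA library at a time lowered the numbers of calls in both kinds of promoter and among all tested genes. The median log2 change at sole openings was then 0.57 without knockout replicate 1 and 0.62 without knockout replicate 2. It was 0.54 without control replicate 1 and 0.57 without control replicate 2. Beside a control peak the same fits gave medians of 0.20 to 0.23, and over all tested genes 0.08 to 0.10. With low genes kept in, the order of the kinds turned round, and 36 of 269 genes at sole openings (13.4%) rose, against 51 of 267 (19.1%) beside a control peak and 12.4% of 21810 genes in all. Rises of at least 1 on the log2 scale numbered 28 (28.9%) at sole openings and 11 (5.56%) beside a control peak, against 3.58% of all tested genes. Falls of that size numbered 4 and 5, against 3.85% of all tested genes. The mirror class ran the other way. Of 141 tested genes at control-alone promoter regions, 25 rose (17.7%) and 43 fell (30.5%), with a median log2 change of −0.13. Rises of at least 1 on the log2 scale numbered 8 there (5.67%), a share like that beside a control peak, and such falls 20 (14.2%). The difference between classes of promoters was not tested.

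**Figure D4:**
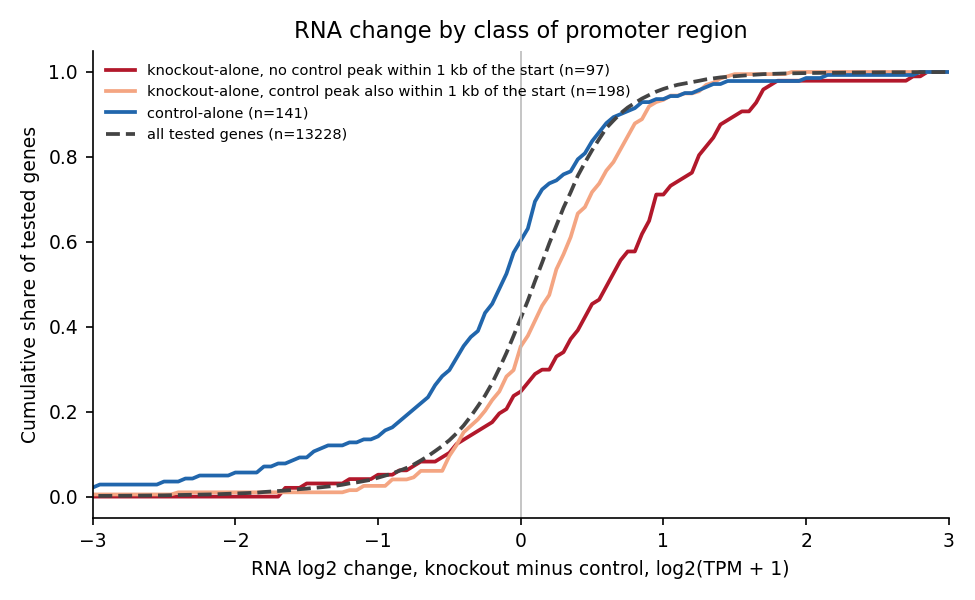
Cumulative share of tested genes (vertical axis) up to each RNA log2 change, knockout minus control, on log2(TPM + 1) (horizontal axis), for the classes of promoter regions and for all tested genes (dashed). The curve of genes at sole knockout-alone openings (median 0.61) lies to the right of all tested genes (median 0.09) over the upper part of its range, and that of genes at control-alone regions (median −0.13) to the left below a change of 0.5. The axis ends at −3 and 3, and a few genes lie beyond it.

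The counts also differed by distance from the start, which was not tested. With the centre within 250 bp of the start, 54 of 120 tested genes rose (45.0%) and 10 fell (8.33%). Further out 55 of 175 rose (31.4%) and 27 fell (15.4%). Among all tested genes 25.2% rose and 14.7% fell. Most sole openings lie in the nearer class, so the splits by nearness and by control peak overlap. Across the 295 tested genes, Spearman's rho between the lower −log10 q and the log2 change was 0.01, and between the lower fold enrichment and the log2 change 0.28. Within sole openings (n = 97) the rho with fold enrichment was 0.17, and beside control peaks (n = 198) it was also 0.17. Genes share libraries and are not independent replicates, so these are descriptions.

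The 10 largest rises included 3 genes of the adipocyte and lipid droplet list. All 13 gene lists were chosen with earlier results of these data known, so counts over them are descriptions. Plin1, which encodes the coat protein perilipin of the adipocyte lipid droplet, had 9.09 and 12.1 TPM in knockout, against 0.817 and 0.501 TPM in control. The groups did not overlap, which the choice of these 10 genes required, and the means differed 16.1-fold (log2 change 2.80, SE 0.23, adjusted p = 0.00101). Its region covered the start, at chr7:79732759-79732969, with −log10 q of 6.36 and 10.3 in the knockout lists, and its upstream sequence is printed above. Fabp4, a fatty acid-binding protein of adipocytes and macrophages, had 148 and 151 TPM in knockout, against 50.2 and 41.5 TPM in control. Both knockout libraries were about level with each other and well above control (3.26-fold, log2 change 1.69, SE 0.10, adjusted p = 0.000425). Its promoter was a sole opening too (chr3:10208530-10208758, −log10 q of 10.01 and 17.0). Agt, which encodes angiotensinogen and is expressed by fat and liver, had 12.8 and 8.87 TPM in knockout, against 0.681 and 0.914 TPM in control (13.6-fold, log2 change 2.70, adjusted p = 0.00118). Its region lay inside the gene, 435 bp from the start (chr8:124569159-124569386).

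The other 7 of the 10 largest rises belonged to none of the 13 gene lists. Tie1, an endothelial receptor tyrosine kinase, had 8.39 and 8.55 TPM in knockout, against 2.26 and 1.35 TPM in control (log2 change 1.77, SE 0.22, adjusted p = 0.00311). Scarf1, a scavenger receptor of endothelial cells, had 10.95 and 10.6 TPM in knockout and 1.91 and 2.52 TPM in control (log2 change 1.88, adjusted p = 0.00136). It was the 1 gene of these 10 whose start also had a control peak. Ednra, the endothelin A receptor of smooth muscle, had 10.9 and 9.57 TPM in knockout and 3.38 and 1.82 TPM in control (log2 change 1.67, adjusted p = 0.00544). Its sole opening was the strongest of the 10, with −log10 q of 16.8 and 19.5.

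Cald1, which encodes the actin-binding protein caldesmon, had 157 and 131 TPM in knockout, against 46.8 and 45.5 TPM in control (log2 change 1.62, SE 0.10, adjusted p = 0.000477). Mme, the membrane peptidase neprilysin, had 53.9 and 37.7 TPM in knockout and 14.0 and 14.3 TPM in control (log2 change 1.61, adjusted p = 0.002). Rspo2, a secreted enhancer of Wnt signalling, had 13.7 and 9.16 TPM in knockout and 3.18 and 2.51 TPM in control (log2 change 1.67, adjusted p = 0.00424). In each of these 3 genes knockout replicate 1 was the higher of the knockout pair. No knockout value overlapped control, which the choice of the genes required. Cbr2, a carbonyl reductase gene, had 19.4 and 22.4 TPM in knockout and 5.28 and 6.03 TPM in control (log2 change 1.72, adjusted p = 0.00092). Rises of at least 1 on the log2 scale numbered 39 in all (13.2% of tested genes here, 3.58% of all tested genes) and ran from 1.03 upwards. They included Col5a2, a collagen gene, Mxra8, Ogn and Ccdc80, with log2 changes of 1.40, 1.34, 1.30 and 1.24, each at a sole opening. These 4 were picked out after their values were seen and not by the rule for named genes. How many of the 39 are matrix genes was not counted.

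Markers of the stromal culture layer moved in the same libraries. Of 15 tested genes of a stromal list, 11 rose (median log2 change 1.06), 0 fell and 4 missed the threshold, where 25.2% of all tested genes rose and 14.7% fell. The 17 listed genes summed to 4068 and 3488 TPM in knockout and to 2460 and 2521 TPM in control, with Dcn and Lum at 0 in at least 1 library. Dll1, the ligand that the OP9-DL1 layer carries, stood at 671 and 534 TPM in knockout and at 236 and 241 TPM in control. Ptprc, which encodes CD45 of blood cells, stood at 129 and 142 TPM in knockout and at 207 and 232 TPM in control. Knockout replicate 1 was above knockout replicate 2 in 13 of the 15 stromal genes, in 26 of the 39 promoter genes that rose by at least 1, and in 55.8% of all tested genes. None of the 17 stromal genes had a knockout-alone promoter region, beside 2.27% of all genes. A list of 17 genes is too short to tell 0 from that share. A promoter region in all 4 lists was held by 9 of the 17, and by 12698 of all 24538 genes. The part of stromal cells in the RNA rises and in the knockout-alone openings was not tested.

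**Figure D5:**
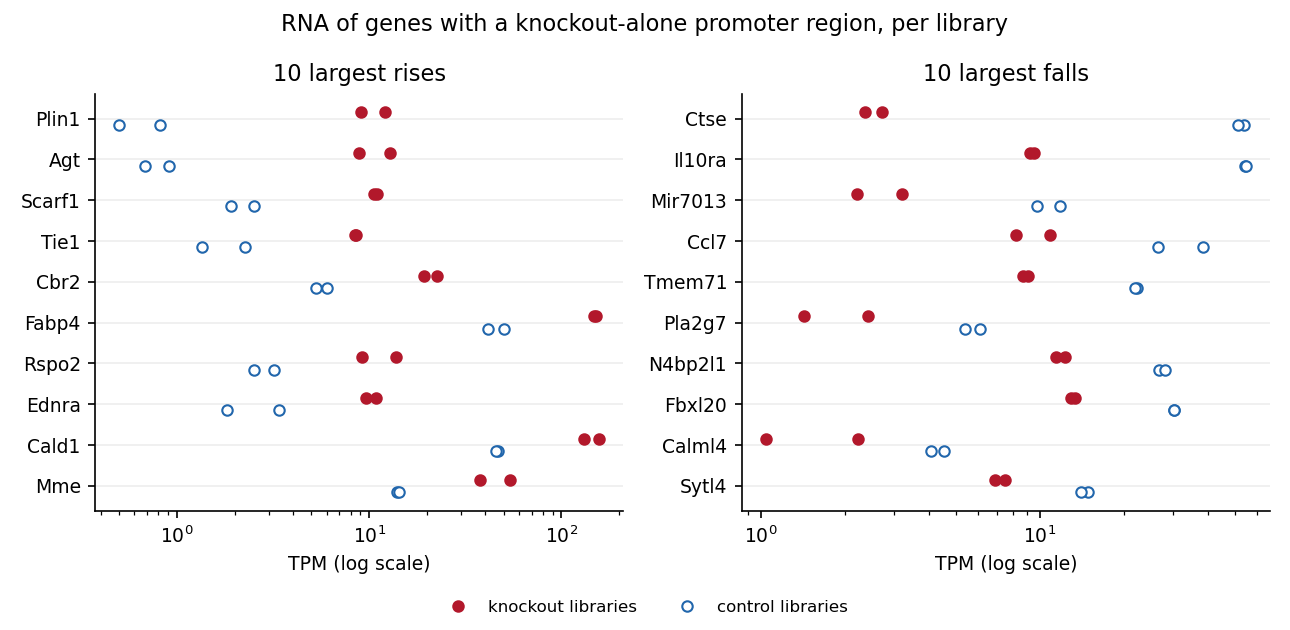
TPM (horizontal axis, log scale) of the 10 largest rises (left) and 10 largest falls (right) among called genes with a knockout-alone promoter region. Each filled point is a knockout library and each open point a control library. Only genes whose knockout and control values do not overlap could be chosen, so the separation of the points follows from the choice.

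At 9 of the 295 tested genes (3.05%) a knockout-alone promoter region went with an RNA fall of at least 1 on the log2 scale. Falls of that size were no more common here than among all tested genes (3.85%). Ctse, the aspartic protease cathepsin E, had 2.37 and 2.72 TPM in knockout, against 53.6 and 51.4 TPM in control (log2 change −3.92, SE 0.12, adjusted p = 0.000127). Its region lay 612 bp inside the gene, 288 bp from a control peak, with −log10 q of 7.07 and 17.2. Il10ra, a chain of the interleukin-10 receptor, had 9.50 and 9.24 TPM in knockout and 54.4 and 54.6 TPM in control (log2 change −2.42, SE 0.08, adjusted p = 0.000154). This gene had 2 knockout-alone regions, centred 356 and 845 bp downstream of its start, both beside a control peak. Ccl7, a monocyte-attracting chemokine, had 8.21 and 10.9 TPM in knockout and 26.6 and 38.2 TPM in control (log2 change −1.65, adjusted p = 0.00331). Unlike Ctse and Il10ra, it was a sole opening, centred at −63 bp from the start (negative is upstream), with −log10 q of 4.75 and 10.4.

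The other named falls were smaller. Pla2g7, the acetylhydrolase of platelet-activating factor, had 1.43 and 2.43 TPM in knockout and 6.11 and 5.41 TPM in control (log2 change −1.23, adjusted p = 0.0128). Its call was lost without control replicate 1 or 2 (adjusted p = 0.079 and 0.0583). Tmem71, N4bp2l1 and Fbxl20, an F-box gene, had log2 changes of −1.23, −1.15 and −1.14, and Sytl4, which encodes the vesicle-docking protein granuphilin, one of −0.91. All 4 lay beside a control peak. Calml4, a calmodulin-like gene, had a log2 change of −1.04 (adjusted p = 0.0352) that was lost without control replicate 1, control replicate 2 or knockout replicate 1 and when low genes were kept in (adjusted p = 0.0755 to 0.144). Mir7013 had a log2 change of −1.67, and it lies inside Pi4kb on the same strand.

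Some genes of the lineage and pathway lists had a knockout-alone promoter region. Over 13 gene lists, 7 of 216 genes did (3.24%), against 2.27% of all genes in the files. Lmo2, the bridging protein of the SCL complex in stem cells and a gene of the stem and progenitor list, had 282 and 287 TPM in knockout, against 118 and 114 TPM in control. It rose 2.45-fold (log2 change 1.29, SE 0.04, adjusted p = 0.000147), with both knockout libraries far above control. Its sole opening lay 370 bp downstream of the start (chr2:103958255-103958476), with −log10 q of 11.4 and 11.5. S100a9, a calcium-binding protein of neutrophils, had 263 and 255 TPM in knockout and 224 and 212 TPM in control (log2 change 0.25, adjusted p = 0.0098), a call lost after quantile normalization (0.286) and without control replicate 2 (0.0525). Rora, a nuclear receptor gene needed by innate lymphoid cells, had 3.16 and 2.45 TPM in knockout and 4.81 and 5.85 TPM in control (log2 change −0.74, adjusted p = 0.0373). That call was lost with any 1 of the 4 RNA libraries left out (adjusted p = 0.0658 to 0.162), and when low genes were kept in (0.0884). Eda2r, a p53-induced receptor gene, had 0.967 and 1.35 TPM in knockout and 0.259 and 0.296 TPM in control and was too low to be tested.

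The adipocyte and lipid droplet list had 3 of its 13 genes among the knockout-alone promoters, namely Plin1, Fabp4 and Agt. The share among all genes was 2.27%. Across that list 8 of 11 tested genes rose and 0 fell, beside 25.2% and 14.7% of all tested genes, and the 13 genes summed to 333 and 319 TPM in knockout and 104 and 90.3 TPM in control. Adipoq, which encodes the fat-cell hormone adiponectin and had no knockout-alone promoter region, had 30.3 and 25.9 TPM in knockout and 0.873 and 1.58 TPM in control (log2 change 3.72, adjusted p = 0.000418). Cidec and Retn, other markers of mature fat cells, were at 0 in at least 1 library. The median log2 change of its tested genes was 1.69.

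The counts of the other lists stand beside 25.2% risen and 14.7% fallen among all tested genes. In the lists that held 1 promoter gene each, 12 of 23 tested stem and progenitor genes rose and 7 fell (median log2 change 0.50), and 6 of 13 p53 target genes rose and 2 fell (0.41). Of 25 neutrophil and monocyte genes, 9 rose and 6 fell, with a median of 0.06 that turned negative under both other scalings. Of 11 NK and innate lymphoid genes, 1 rose and 6 fell (median −0.58). The remaining lists had no knockout-alone promoter. In the T-lineage list 0 of 20 tested genes rose and 19 fell (median −2.06), and 4 of its genes had a control-alone promoter region. Mast cell and basophil genes had 12 rises and 2 falls among 15 (median 1.995), cell cycle genes 17 rises and 0 falls among 18 (0.60), and erythroid and megakaryocyte genes 4 rises and 2 falls among 12 (0.63). The dendritic cell and MHC class II list had 1 rise and 5 falls among 12 (median −0.42), the B-lineage list 1 and 1 among 3 (−0.10), and the TCF/LEF and Wnt target list 1 and 3 among 7 (0.09, and negative under quantile normalization).

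At 16 genes more than 1 knockout-alone region lay at the same start. Frmd4b had 3 regions within 1 kb, at 4.66 to 16.3 −log10 q, and its log2 change of −0.43 did not pass (adjusted p = 0.147). The 17 gaps between neighbouring regions of a gene had a median of 239 bp and ran from 7 bp at Otud7a to 800 bp at Scarf2. Of these gaps 8 were under 100 bp, and there the files do not tell 1 open stretch called in pieces from separate openings. Of these genes, Pcolce, an enhancer of collagen processing, rose, with 60.8 and 50.2 TPM in knockout and 33.8 and 35.3 TPM in control (log2 change 0.66, adjusted p = 0.00643). Scarf2, a scavenger receptor-family gene, rose as well (8.95 and 6.15 TPM in knockout, 2.44 and 3.18 TPM in control, log2 change 1.15, adjusted p = 0.0141), a call lost without control replicate 1 or knockout replicate 1 (adjusted p = 0.0766 and 0.069). Nisch, an imidazoline-binding protein gene, fell slightly (log2 change −0.21, adjusted p = 0.0114; 0.0604 without control replicate 2), and the larger fall of Il10ra is given above. Igf1r, the insulin-like growth factor 1 receptor, had a log2 change of 0.04 and did not pass. The other 10 (Ackr1, Bmx, Limch1, Lrrn4cl, Magee2, Nell2, Otud7a, Pdgfd, Ttll10 and Usp13) were too low to be tested.

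At 3 genes a knockout-alone and a control-alone region lay at the same start. Hdac7, a histone deacetylase gene of lymphoid and vascular cells, fell (48.4 and 45.6 TPM in knockout, 65.6 and 68.1 TPM in control, log2 change −0.50, adjusted p = 0.00325). Myo1c, an unconventional myosin gene, rose (28.8 and 30.3 TPM in knockout, 22.6 and 22.4 TPM in control, log2 change 0.38, adjusted p = 0.0166). Cecr2, a chromatin remodelling gene, stayed under 0.3 TPM in every library.

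Just inside the 1 kb limit lay regions of Slfn2 (at −985 bp, −log10 q of 14.5 and 13.3), Cdc42ep5 (at 985 bp, 7.41 and 5.92) and Ipo13 (at −987 bp, 14.2 and 16.4). Just outside it lay those of Hapln1 (at −1008 bp, 6.07 and 10.4), Rab28 (at 1013 bp, 21.8 and 18.9) and 1810011O10Rik (at 1015 bp, 7.89 and 6.80).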

How the data were processed

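The submitters' processing notes name HISAT2 and StringTie for RNA, Bowtie2 and MACS2 for ATAC, and the mm10 build, with no versions. TPM values, as deposited, sum to 1000000 per library, and entries of 1 gene ID were summed. Deposited FPKM values served only as an alternative. Peak lists were deposited per library, each peak with the authors' fold enrichment and −log10 q. No read counts were used here, so depth is unknown and no test was run between ATAC libraries. Thresholds, duplicate handling and any transposase shift are not stated in those notes.

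Gene starts came from the coordinates in the RNA tables, and a region was assigned to the start nearest its centre (25 regions had 2 or more starts within 1 kb). The RNA test was limma 3.58.1 (trend, R 4.3.3) on log2(TPM + 1) for the 13228 genes averaging 1 TPM or more. Genotype was the single term, and p-values were adjusted by the Benjamini-Hochberg method over those genes. The code was checked on simulated data. Fold changes on this scale understate those of low genes. Named were the 10 strongest regions, the 10 largest called rises and falls without overlap, members of 13 gene lists, genes with several regions and the edges of the window. Members and lists were chosen with earlier results of these data known.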

Additional observations from a re-analysis of the deposited data

How the results depend on the processing

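The number of knockout-alone promoter regions (573) came to 818 to 1099 when 1 ATAC list at a time was left out, 386 with the centre within 500 bp and 801 within 2 kb, 452 with peaks up to 200 bp apart merged, and 522 or 558 with a −log10 q of at least 5. Over the fits that left out 1 RNA or ATAC library, 62 to 181 tested genes rose (109 with all) and 17 to 74 fell (37 with all). With the centre within 500 bp, 71 rose and 19 fell. All other alternatives (pseudocount, minimum level, scaling, FPKM, every start within 1 kb, stricter peaks) kept both counts within 1.5 times. Over all tested genes, leaving out 1 RNA library gave 2062 to 2320 rises (3331 with all) and 1114 to 1502 falls (1940 with all). A fit without 1 RNA library assumes that the lone library left varies like the other genotype's, and leaving out an ATAC list loosens the rule itself. The median log2 change of the tested promoter genes was above 0 under each of these alternatives (0.08 with low genes kept in, 0.44 within 500 bp). The log2 change of Smc1a turned to −0.022 after quantile normalization.

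Replicate numbers are shared between genotypes, but the deviations of same-numbered RNA libraries had a correlation of 0.0043 across genes, so the numbers are not taken to pair them. With a replicate block 102 genes rose and 32 fell, and the calls of Rora and Smc1a were lost (adjusted p = 0.0623 and 0.0629). Depth is unknown, since no read counts were used here, and precision is limited to the spread of 2 libraries per group.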
